A study of Mus musculus with 6 samples.

Results

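Transcripts of the autophagy machinery and of the factors that regulate it were compared between muscle of mice lacking Rpt3 and muscle of control mice. Rpt3, encoded by Psmc4, is an ATPase of the 19S regulatory particle of the proteasome. The genes described here are 42 that act in the initiation of autophagy, the nucleation, growth and closure of its membranes, the fusion of autophagosomes with lysosomes and the removal of mitochondria, together with transcription factors of these genes. The ATG8 proteins and cargo receptors were kept as a separate list. Genes were matched by symbol to the probes of a mouse whole-genome CodeLink bioarray, and a probe was used when it was not flagged near background on at least 3 of 6 arrays. Of the 42 genes, 40 were tested among 14731 genes in all. Atg4d and Bnip3l had no probe assigned to them alone. All of the 40 tested genes lay above background on each of the 6 arrays.

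RNA was labelled with Cy5 and hybridised to 3 arrays per group, which the labels describe as separate samples. The mice of both groups were female and 6 weeks old. The Rpt3 null mice were Mlc1f-Cre/Rpt3 f/f, and the control mice were described in the study as Mlc1f-Cre/Rpt3+/+, so that both groups carried Cre, although the labels give the strain of both groups as mlc1f-Cre/ Rpt3-floxed. The Mlc1f promoter was used to direct Cre to fast-twitch fibers. The study gives excision by this Cre as partial and leaves unsettled whether slow-twitch fibers were affected. The labels name the tibialis anterior as the tissue, whereas the study's description of its arrays names the gastrocnemius. The Psmc4 probe read 9.78 to 10.01 on the Rpt3 null arrays and 10.91 to 11.16 on the control arrays on the log2 scale, a log2 fold change of -1.17 with groups that did not overlap. Between 57.0% and 74.5% of transcript probes were above background on an array, the lowest share being that of control array 2, and arrays of one group correlated at 0.953 to 0.985 against 0.932 to 0.965 for arrays of different groups. Control arrays 1 and 2, at 0.953, were no closer to each other than Rpt3 null array 2 was to any control array. The 11 skeletal muscle fiber genes with a value on every array summed to 17.51 to 17.57 (log2 of the summed linear intensity) on the Rpt3 null arrays and 17.59 to 17.70 on the control arrays, slightly lower without overlap. Acta1, which had no usable spot on control array 3, was left out of this sum. Quantile normalization sets values by rank. Genes at the top of the range, such as Mylpf, Tnni2 and Ckm, therefore shared values between arrays, which limits the fiber sum as a measure of fiber content. Of the 12 fiber genes tested, 1 was higher and 2 lower. Markers of other cells were summed in the same way. The 11 of 16 macrophage markers that were tested summed to 12.67 to 13.25 on the Rpt3 null arrays against 11.41 to 11.63, with 8 higher and 3 not past the test. Cd68 and Csf1r had no named probe, and Adgre1, Itgam and Ptprc were not tested either. Aif1 was above background on 3 Rpt3 null arrays and 1 control array, and Fcer1g on 3 and 2. Both reached the filter of 3 arrays only with their Rpt3 null arrays. Genes of satellite cells and regenerating fibers summed to 12.12 to 12.75 against 10.74 to 11.01, with 3 of 6 higher, and fibroblast genes to 14.98 to 15.03 against 14.42 to 14.63, with 3 of 10 higher. The endothelial genes overlapped between groups, at 11.16 to 11.33 against 11.23 to 11.51. With arrays centred on Actb, 7 macrophage genes were higher and 3 lower, 1 regeneration gene was higher, and of the fibroblast genes none was higher and 1 lower. Of all 14731 genes, 328 were higher and 10329 lower with this centring. The fiber, macrophage, regeneration and fibroblast sums moved with the groups in the same RNA as all results below, and their part in those results was not tested. In whole-muscle RNA, fewer cells of a type and less RNA per cell cannot be told apart.

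Macroautophagy encloses cytoplasm in a double membrane, the autophagosome, and delivers it to the lysosome for degradation. The ULK1 kinase complex starts the process, a class III phosphatidylinositol 3-kinase complex marks the membrane that will grow, lipid carriers and a pair of ubiquitin-like conjugation systems extend it, and tethers and SNARE proteins fuse the closed vesicle with the lysosome. In skeletal muscle the pathway works beside the proteasome in protein turnover, clears worn mitochondria, and is needed to keep muscle mass.

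Promoter sequence of the mouse genes was taken from RefSeq (GRCm38.p6) for 32 of the 40 tested genes, as the 250 bases before each gene start. Both strands were searched for CACGTG, the E-box core bound by TFEB and TFE3, for GTAAACA, a FOXO site, and for TGACNNNGC, the core of the antioxidant response element. No gene held more than 1 of the 3 motifs, so no matches of different motifs overlap. CACGTG was present in 3 of the 32 genes, Atg3, Atg5 and Atg7, and in 6.02% of 32851 promoter windows. TGACNNNGC was present in 5 genes, Atg13, Bcl2l13, Rab7, Ulk2 and Vmp1, and in 10.2% of windows. GTAAACA was found in none of the 32 and in 3.17% of windows. The windows of the E-box genes, all members of the conjugation systems, are shown first, 5′ to 3′ on the strand of the gene with the motif in capitals.
Atg3, chr16:45158708-45158790, plus strand: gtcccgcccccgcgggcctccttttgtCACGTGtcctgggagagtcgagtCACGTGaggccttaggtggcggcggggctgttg
Atg5, chr10:44268298-44268338, plus strand: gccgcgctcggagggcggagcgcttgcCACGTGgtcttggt
Atg7, chr6:114670937-114670996, plus strand: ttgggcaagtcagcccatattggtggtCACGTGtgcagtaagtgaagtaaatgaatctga
The motif began 94 and 71 bases before the start of Atg3, 14 bases before Atg5 and 132 bases before Atg7. Windows with TGACNNNGC are shown for Ulk2, which passed the expression test, and for Bcl2l13, Rab7 and Atg13, which did not. Vmp1 also passed and held matches that began 168, 156 and 75 bases before its start, but its window is not shown. In Atg13 the motif lies on the opposite strand, so its capitals give the reverse complement.
Ulk2, chr11:61855093-61855136, minus strand: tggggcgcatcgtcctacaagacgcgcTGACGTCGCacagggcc
Bcl2l13, chr6:120836090-120836173, plus strand: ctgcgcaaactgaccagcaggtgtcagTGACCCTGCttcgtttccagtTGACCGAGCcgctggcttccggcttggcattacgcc
Rab7, chr6:88045047-88045109, minus strand: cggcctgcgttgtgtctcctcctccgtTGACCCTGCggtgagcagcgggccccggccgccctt
Atg13, chr2:91710799-91710842, minus strand: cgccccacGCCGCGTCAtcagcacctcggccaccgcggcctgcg
The match began 17 bases before the start of Ulk2, 113 and 92 bases before Bcl2l13, 65 before Rab7 and 242 before Atg13. The whole windows of Pink1 and Plekhm1 hold none of the 3 motifs and have no capitals. By the brightest probe of each gene, these had the greatest decrease and the greatest increase among the 40.
Pink1, chr4:138326297-138326546, minus strand: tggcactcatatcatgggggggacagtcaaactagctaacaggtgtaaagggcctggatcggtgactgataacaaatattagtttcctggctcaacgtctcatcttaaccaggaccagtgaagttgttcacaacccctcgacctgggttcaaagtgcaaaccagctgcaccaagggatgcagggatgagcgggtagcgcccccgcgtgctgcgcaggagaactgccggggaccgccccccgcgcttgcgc
Plekhm1, chr11:103412706-103412955, minus strand: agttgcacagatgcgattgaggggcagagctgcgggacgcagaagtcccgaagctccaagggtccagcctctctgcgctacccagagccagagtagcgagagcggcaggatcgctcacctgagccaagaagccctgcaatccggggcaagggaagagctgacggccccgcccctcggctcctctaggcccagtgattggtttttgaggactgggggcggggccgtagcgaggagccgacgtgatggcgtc
A match describes these letters only. Of the 9 genes that passed the expression test, 8 had a window, 1 of them with CACGTG and 2 with TGACNNNGC.

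The autophagy genes moved in both directions in Rpt3 null muscle. Plekhm1, Wipi2, Atg7, Epg5 and Vamp8 were higher and Pink1, Ulk2, Vmp1 and Fundc1 were lower at an adjusted p under 0.05 (limma, Benjamini-Hochberg over 14731 genes), while 31 of the 40 did not pass. The 9 genes are 22.5% of those tested, against 19.3% of all genes (12.7% higher and 6.56% lower). The Rpt3 null and control arrays did not overlap for 20 of the 40, or 50%, with 27.5% above and 22.5% below, against 36.8% of all genes (21.2% above and 15.6% below). A change of at least 1.5-fold was seen in 3 genes upward and 3 downward, against 9.61% and 4.76% of all genes. The median log2 fold change was 0.03, against -0.01 for all genes, and the median size of the change was 0.225, against 0.220. The share that passed the test and the medians lay close to those of the array as a whole, and the share without overlap was above it. All 40 genes lay above background on all 6 arrays, against 12142 of the 14731 genes. The part of this difference in the shares was not tested.

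**Figure D1:**
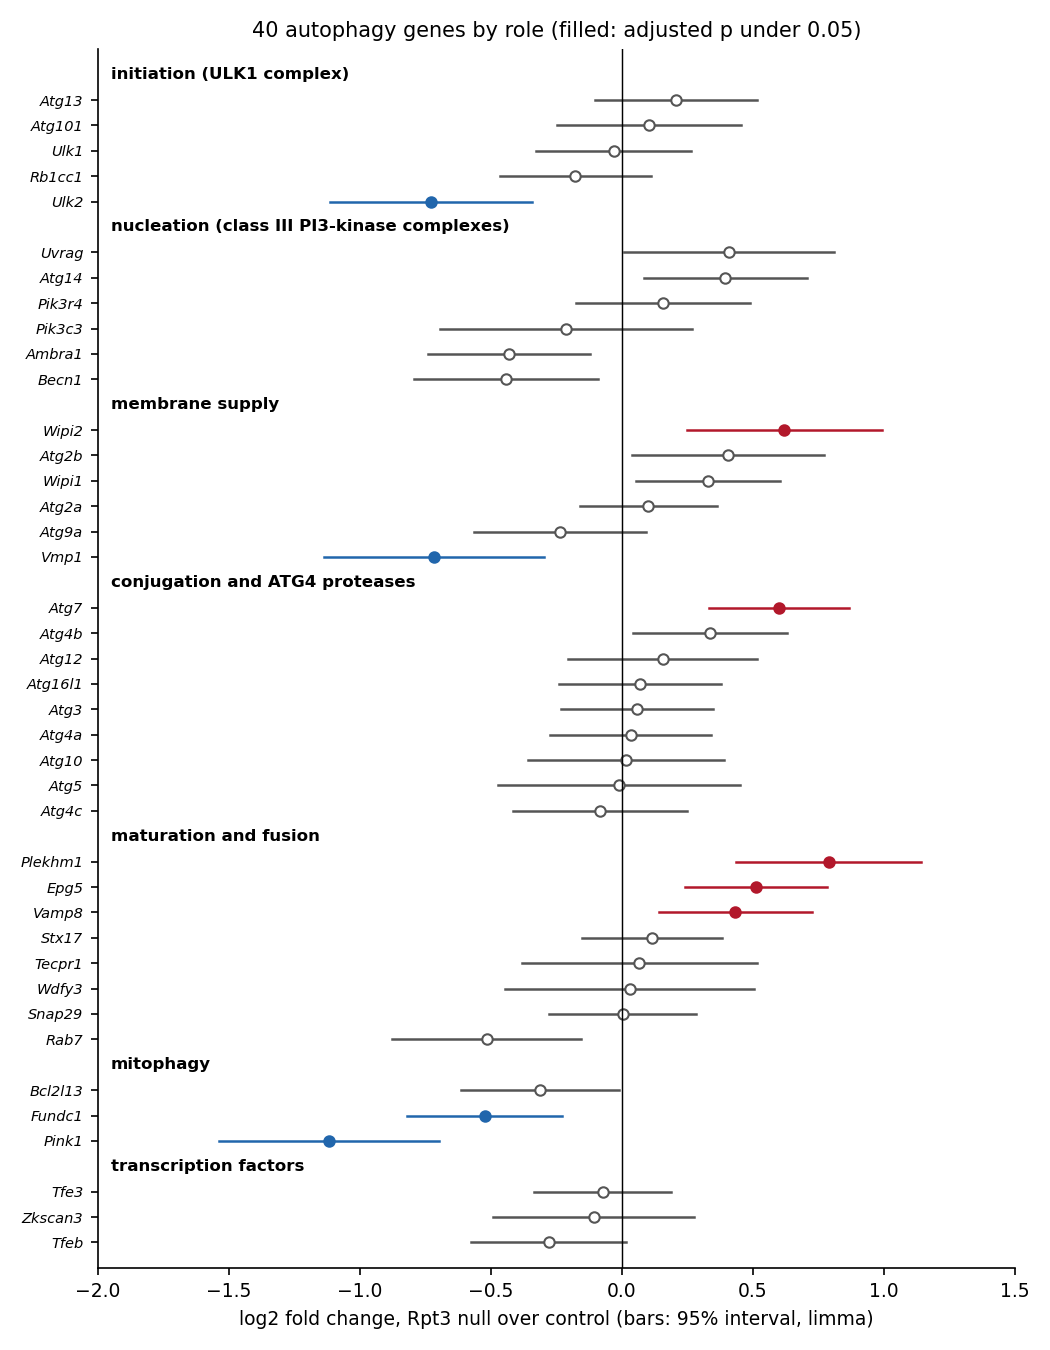
Log2 fold change of 40 autophagy genes in Rpt3 null over control muscle, ordered by role, with the 95% interval from limma (n = 3 arrays per group); filled points passed an adjusted p of 0.05. The 5 filled points on the right lie in membrane supply, conjugation and fusion, and the 4 on the left lie in initiation, membrane supply and mitophagy; with arrays centred on Actb none of the 5 on the right passed and 4 of them changed sign.

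The counts depended on the scaling and on single arrays. Centring each array on its median in place of quantile normalization gave 10 genes higher and 3 lower, against 5 and 4, with Atg14, Uvrag, Wipi1, Atg2b and Atg4b added among the higher and Fundc1 lost among the lower. Centring on Actb moved the median of all genes to -0.72 and that of the 40 genes to -0.67, so that 28 were lower and none higher, and Wipi2, Atg7, Epg5 and Vamp8 changed sign. Of all 14731 genes, 10329 were lower and 328 higher with this centring. In that scale Pink1 stood at -1.72, Ulk2 at -1.39, Vmp1 at -1.36 and Fundc1 at -1.11, each still past the threshold. Without Rpt3 null array 2 or 3 or control array 3, 2 genes were higher, and without control array 2, 8 were. The number lower was 1 without Rpt3 null array 1 or control array 3, 2 without Rpt3 null array 3, and 8 without control array 1. Atg7, Plekhm1 and Pink1 passed in each of the 6 fits that left out 1 array. The p-values rest on the spread between these 6 arrays, which limma shares in part over all genes. The labels describe the arrays as separate samples.

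**Figure D2:**
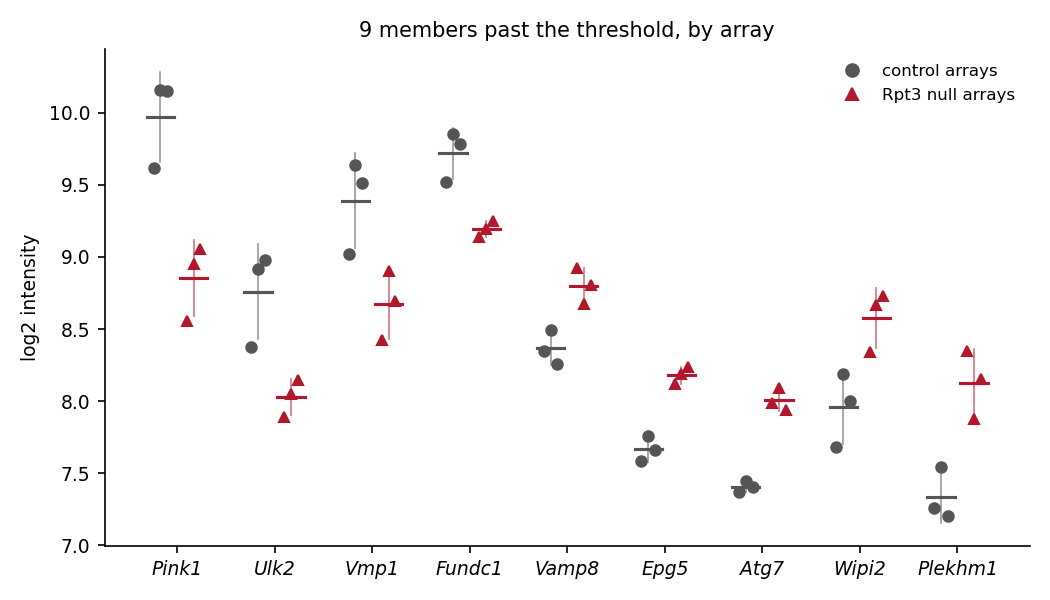
Log2 intensity of the 9 autophagy genes that passed the threshold on each of 3 control and 3 Rpt3 null arrays, with group means (horizontal bars) and SD (vertical lines). The groups do not overlap for any of the 9; for Pink1, Ulk2, Vmp1 and Fundc1 the control array closest to the Rpt3 null arrays is control 1. Centring on Actb turns the sign of Vamp8, Epg5, Atg7 and Wipi2.

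In the ULK1 complex, which receives signals of nutrient and energy state, Ulk2 was lower and the other 4 subunits did not pass. Ulk2 is a serine/threonine kinase closely related to Ulk1. Its log2 intensity was 7.89, 8.05 and 8.14 on the Rpt3 null arrays and 8.38, 8.91 and 8.98 on the control arrays. All Rpt3 null arrays lay below all control arrays, and control 1 was the nearest to them. The group means were 8.03 ± 0.13 and 8.76 ± 0.33 (SD, n = 3), which gave a log2 fold change of -0.73 (SE 0.17, adjusted p = 0.0151), or 1.66-fold lower. Without Rpt3 null array 1 the adjusted p was 0.0776, and without control array 3 it was 0.0843. For Ulk1, the paralogous kinase, the values were 7.63, 7.91 and 7.83 on the Rpt3 null arrays and 7.84, 7.71 and 7.91 on the control arrays. The groups of Ulk1 overlapped and the log2 fold change was -0.03, with a 95% interval from -0.33 to 0.26 (adjusted p = 0.902). The difference between the paralogs was not tested. The scaffold Rb1cc1 (FIP200) had a log2 fold change of -0.18, the regulatory subunit Atg13 0.21, and Atg101, which stabilises Atg13, 0.10, all with overlapping groups.

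None of the 6 nucleation genes passed at an adjusted p under 0.05 in limma, although 2 were higher and 2 lower at an unadjusted p under 0.05, and 1 in each direction by the unpaired test of the study's methods, unadjusted. Ambra1, a scaffold that links the Beclin-1 complex to the cytoskeleton and to ULK1, had the lowest adjusted p of the group. Its log2 intensity was 10.38, 10.60 and 10.32 on the Rpt3 null arrays and 11.03, 10.76 and 10.80 on the control arrays. The Rpt3 null arrays lay below the control arrays without overlap. The means were 10.43 ± 0.15 and 10.86 ± 0.15 (SD, n = 3), and the log2 fold change was -0.43 (SE 0.14, adjusted p = 0.0546). Without control array 2, Ambra1 reached an adjusted p of 0.0367, and the other 5 fits without an array gave 0.0604 to 0.189. Median centring reduced the log2 fold change to -0.15 (adjusted p = 0.490).

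Becn1 encodes Beclin-1, the regulatory subunit of the lipid kinase complex. The study measured the protein and reported it as increased in gastrocnemius of Rpt3 null mice, whereas the array labels name the tibialis anterior. How RNA and protein relate was not tested. The log2 intensity of Becn1 was 8.83, 8.91 and 9.16 on the Rpt3 null arrays and 9.13, 9.54 and 9.56 on the control arrays. The groups overlapped by the highest Rpt3 null array and control array 1. The means were 8.97 ± 0.17 and 9.41 ± 0.24 (SD, n = 3), which gave a log2 fold change of -0.44 (SE 0.16, adjusted p = 0.0779). Without control array 1 the log2 fold change was -0.58 and the adjusted p 0.0116, and the other 5 fits without an array gave 0.0857 to 0.280. Median centring reduced the log2 fold change to -0.28 (adjusted p = 0.248). The catalytic subunit Pik3c3 (VPS34) had a log2 fold change of -0.21 with a 95% interval from -0.69 to 0.27, and without control array 1 it stood at -0.47 (adjusted p = 0.0422). Pik3r4 (VPS15), the kinase that anchors Pik3c3, stood at 0.16. Atg14 and Uvrag define alternative complexes, the former acting in autophagosome formation and the latter mostly on endosomes and late steps. Atg14 showed a log2 change of 0.40 (adjusted p = 0.0777) with Rpt3 null arrays above control arrays, and Uvrag one of 0.41 (adjusted p = 0.149) with overlapping groups. Both passed without control array 2, at adjusted p of 0.0287 and 0.0145.

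Among genes that supply and shape the growing membrane, Wipi2 was higher and Vmp1 lower, and the other 4 did not pass. Wipi2 binds phosphatidylinositol 3-phosphate and recruits the Atg16l1 complex. Its log2 intensity was 8.34, 8.67 and 8.73 on the Rpt3 null arrays and 7.68, 8.19 and 8.0 on the control arrays. The groups did not overlap, with the lowest Rpt3 null array above the highest control array. The means were 8.58 ± 0.21 and 7.96 ± 0.26 (SD, n = 3), and the log2 fold change was 0.62 (SE 0.17, adjusted p = 0.0264), or 1.54-fold higher, against -0.05 when arrays were centred on Actb. The adjusted p was 0.0894 without Rpt3 null array 2, 0.112 without Rpt3 null array 3 and 0.0855 without control array 3.

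Vmp1 is a membrane protein of the endoplasmic reticulum, where it moves phospholipids between bilayer leaflets. It read 8.42, 8.90 and 8.69 on the Rpt3 null arrays and 9.02, 9.64 and 9.51 on the control arrays. The Rpt3 null arrays were the lower ones without overlap, by a narrow margin to control 1. The means were 8.67 ± 0.24 and 9.39 ± 0.33 (SD, n = 3), which gave a log2 fold change of -0.72 (SE 0.19, adjusted p = 0.0237), or 1.64-fold lower. The adjusted p was 0.115 without Rpt3 null array 1, 0.0775 without Rpt3 null array 3 and 0.106 without control array 3. Wipi1, the paralog of Wipi2, showed a log2 change of 0.33 (adjusted p = 0.0934). Atg9a, the lipid scramblase carried on vesicles that seed the membrane, had -0.24. The lipid transfer protein genes Atg2a and Atg2b had 0.10 and 0.40, and the Rpt3 null arrays of Wipi1, Atg2a and Atg2b each lay above the control arrays.

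Of the 9 conjugation genes tested, Atg7 was higher and 8 did not pass. Atg7 is the E1-like enzyme that activates both Atg12 and the ATG8 proteins. Atg7 read 7.99, 8.09 and 7.94 on the Rpt3 null arrays and 7.37, 7.45 and 7.41 on the control arrays. The arrays of each group lay close together and the groups were well apart. The means were 8.01 ± 0.08 and 7.41 ± 0.04 (SD, n = 3), and the log2 fold change was 0.60 (SE 0.12, adjusted p = 0.00652), or 1.52-fold higher. Leaving out 1 array at a time gave adjusted p of at most 0.0427, whereas centring on Actb turned the log2 fold change to -0.13.

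Atg5 is joined to Atg12, and the study also reported its protein as increased in gastrocnemius of Rpt3 null mice. The Atg5 probe read 7.72, 8.04 and 8.18 on the Rpt3 null arrays and 7.55, 8.36 and 8.06 on the control arrays. The groups of Atg5 overlapped throughout. The means were 7.98 ± 0.23 and 7.99 ± 0.41 (SD, n = 3), which gave a log2 fold change of -0.01 (SE 0.21, adjusted p = 0.981). Its 95% interval ran from -0.47 to 0.45, so a change in either direction within that interval remains compatible with these 6 arrays. The other E2-like and partner proteins had small values, with log2 fold changes of 0.06 for Atg3, 0.02 for Atg10, 0.16 for Atg12 and 0.07 for Atg16l1. The Atg4 proteases trim the ATG8 proteins and later release them from membranes. Atg4b showed a log2 change of 0.34 (adjusted p = 0.108) with Rpt3 null arrays above control arrays, Atg4a one of 0.03 and Atg4c one of -0.08. The 3 genes with CACGTG in the promoter window, printed above, were Atg3, Atg5 and Atg7, of which Atg7 passed.

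In maturation and fusion, Plekhm1, Epg5 and Vamp8 were higher and the other 5 of 8 genes did not pass. Plekhm1 is an adaptor that binds Rab7, the HOPS tethering complex and ATG8 proteins. It read 8.35, 7.88 and 8.15 on the Rpt3 null arrays and 7.26, 7.55 and 7.2 on the control arrays. The groups did not overlap. The means were 8.13 ± 0.24 and 7.34 ± 0.18 (SD, n = 3), and the log2 fold change was 0.79 (SE 0.16, adjusted p = 0.00675), or 1.73-fold higher. By the brightest probe of each gene, this was the greatest increase among the 40 genes under quantile normalization. Dimmer probes of Tecpr1 and Atg2b, given below, rose more. When arrays were centred on Actb, Plekhm1 stood at 0.08.

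Epg5 is a tethering factor that brings autophagosomes to late endosomes and lysosomes. Epg5 read 8.12, 8.19 and 8.24 on the Rpt3 null arrays and 7.58, 7.76 and 7.66 on the control arrays. The groups stood apart with little spread within either. The means were 8.18 ± 0.06 and 7.67 ± 0.09 (SD, n = 3), which gave a log2 fold change of 0.51 (SE 0.12, adjusted p = 0.0151), or 1.43-fold higher, and -0.19 with Actb centring. The adjusted p was 0.0543 without Rpt3 null array 2, 0.0653 without Rpt3 null array 3 and 0.0779 without control array 3.

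Vamp8 is a SNARE of the lysosome that pairs with Stx17 and Snap29 on the autophagosome. It read 8.92, 8.67 and 8.81 on the Rpt3 null arrays and 8.35, 8.49 and 8.26 on the control arrays. The Rpt3 null arrays were the higher ones without overlap. The means were 8.80 ± 0.12 and 8.37 ± 0.12 (SD, n = 3), and the log2 fold change was 0.43 (SE 0.13, adjusted p = 0.0434), or 1.35-fold higher, and -0.22 with Actb centring. Vamp8 passed in 1 of the 6 fits that left out an array, that without control array 2 (adjusted p = 0.0262), and the adjusted p was 0.150 without Rpt3 null array 1, 0.0637 without Rpt3 null array 2, 0.123 without Rpt3 null array 3, 0.0534 without control array 1 and 0.198 without control array 3. Its partners Stx17 and Snap29 had log2 fold changes of 0.11 and 0.00. Rab7, the GTPase of late endosomes that Plekhm1 and Epg5 bind, showed a log2 change of -0.52 (adjusted p = 0.0504), with 10.64, 11.10 and 11.11 on the Rpt3 null arrays below 11.28, 11.60 and 11.51 on the control arrays. Without control array 1 it stood at -0.61 (adjusted p = 0.0170), without any other single array the adjusted p was 0.0702 to 0.177, and with median centring it stood at -0.25 (adjusted p = 0.359). The scaffold Wdfy3 (ALFY), which links protein aggregates to the machinery, had 0.03 and Tecpr1, which binds the Atg12 and Atg5 conjugate on mature autophagosomes and on lysosomes, 0.07.

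The 3 mitophagy genes tested had log2 fold changes below 0, as had 7605 of all 14731 genes. The Rpt3 null arrays of each lay below its control arrays, as for 15.6% of all genes. Bnip3, a mitophagy receptor kept in the list of ATG8 proteins and cargo receptors, stood at -0.02 with overlapping groups (limma, adjusted p = 0.952). Pink1 and Fundc1 passed. Pink1 is a kinase that accumulates on damaged mitochondria and recruits the ubiquitin ligase Parkin. Its log2 intensity was 8.56, 8.95 and 9.05 on the Rpt3 null arrays and 9.61, 10.16 and 10.15 on the control arrays. The groups were far apart relative to their spread, with control 1 the lowest of the controls. The means were 8.85 ± 0.26 and 9.97 ± 0.31 (SD, n = 3), which gave a log2 fold change of -1.12 (SE 0.19, adjusted p = 0.00271), or 2.17-fold lower, the greatest decrease among the 40 genes. Leaving out any 1 array gave adjusted p of at most 0.0194.

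Fundc1 is a receptor in the outer mitochondrial membrane that binds ATG8 proteins. It read 9.14, 9.20 and 9.25 on the Rpt3 null arrays and 9.52, 9.85 and 9.78 on the control arrays. The groups did not overlap, and the Rpt3 null arrays were tightly grouped. The means were 9.19 ± 0.06 and 9.72 ± 0.17 (SD, n = 3), and the log2 fold change was -0.52 (SE 0.13, adjusted p = 0.0208), or 1.44-fold lower. The adjusted p was 0.0808, 0.0650 and 0.0585 without Rpt3 null arrays 1, 2 and 3 and 0.106 without control array 3. Median centring reduced the log2 fold change to -0.34 (adjusted p = 0.106). Bcl2l13, a mitochondrial receptor that can take the place of Atg32 in yeast, read 7.92, 7.88 and 7.90 on the Rpt3 null arrays and 8.0, 8.39 and 8.24 on the control arrays, a log2 fold change of -0.31 (adjusted p = 0.142), and reached an adjusted p of 0.0427 without control array 1.

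None of the 3 transcription factors passed in limma or at an unadjusted p under 0.05, and the unpaired test of the study's methods called none either. Tfeb, a basic helix-loop-helix factor that activates lysosomal and autophagy genes, read 8.32, 8.27 and 8.21 on the Rpt3 null arrays and 8.74, 8.41 and 8.49 on the control arrays. The Rpt3 null arrays were all below the control arrays. The means were 8.27 ± 0.05 and 8.55 ± 0.17 (SD, n = 3), which gave a log2 fold change of -0.28 (SE 0.13, adjusted p = 0.178), and with median centring it was -0.18. The related factor Tfe3 had -0.07 and Zkscan3, a zinc-finger factor described as a repressor of this program, -0.11.

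Averaged by role, the mitophagy genes showed the widest gap between the groups. Relative to each gene's mean over the 6 arrays, their mean log2 intensity was -0.44, -0.30 and -0.24 on the Rpt3 null arrays and 0.07, 0.49 and 0.42 on the control arrays. Pink1 carries most of this gap. The transcription factors stood at -0.14, -0.04 and -0.05 against 0.04, 0.11 and 0.08. The maturation and fusion genes stood at 0.16, 0.04 and 0.07 against -0.14, -0.01 and -0.12, above the controls under quantile normalization. With Actb centring 5 of these 8 genes passed as lower, and so did 10329 of all 14731 genes. By this mean the arrays of the other role groups overlapped under quantile normalization. The log2 of summed intensity, used above for cell markers, gives bright genes more weight. By that sum maturation and fusion overlapped, at 11.99 to 12.11 on the Rpt3 null arrays and 12.07 to 12.33 on the control arrays. Initiation was then lower without overlap, at 10.60 to 10.75 against 10.87 to 10.92. So was nucleation, at 11.66 to 11.76 against 11.85 to 12.02.

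**Figure D3:**
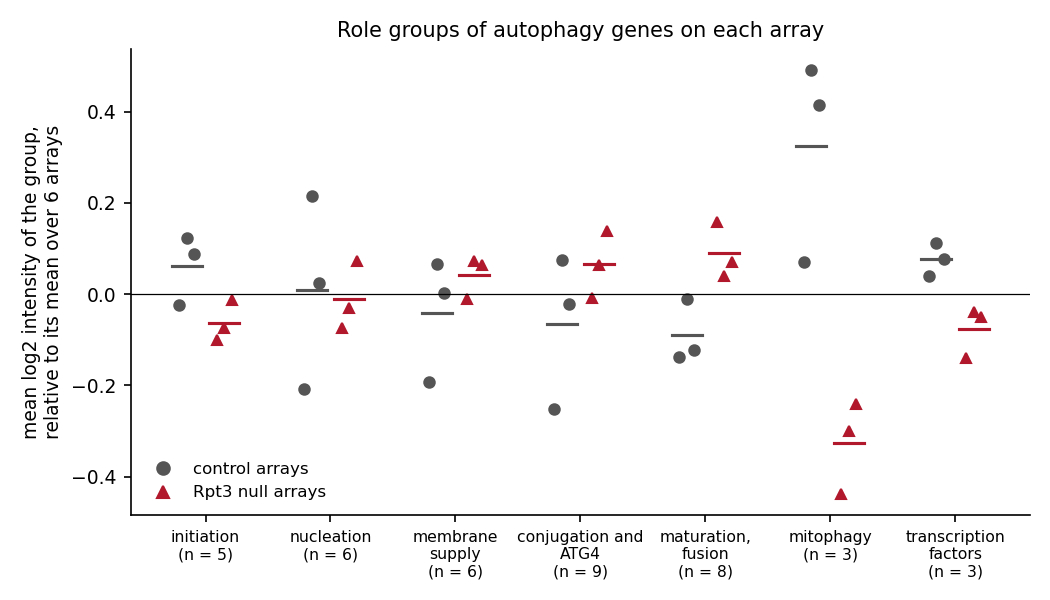
Mean log2 intensity of the genes of each role on each array, relative to the mean of each gene over the 6 arrays (points are arrays, bars are group means, n in brackets is the number of genes). The mean of the mitophagy group, with 2 of 3 genes past the test, and that of the transcription factors, with none of 3, lie lower on all Rpt3 null arrays. That of maturation and fusion, with 3 of 8, lies higher, although the summed intensity of that group overlaps between Rpt3 null and control arrays. Of all genes 19.3% passed under quantile normalization. With Actb centring none of the maturation and fusion genes passed as higher and 5 passed as lower, as did 10329 of all 14731 genes.

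For 5 genes more than 1 probe was above background, and the brightest was used. The probes of Tecpr1 differed from each other. Its brightest probe showed a log2 change of 0.07 (adjusted p = 0.867 in the fit over all probes) with overlapping groups. The middle probe read 9.08, 8.81 and 8.57 on the Rpt3 null arrays against 8.26, 8.20 and 8.43, a log2 fold change of 0.52 (adjusted p = 0.0488). The dimmest read 9.02, 8.86 and 8.99 against 7.66, 8.11 and 7.85, a log2 fold change of 1.08 (adjusted p = 0.00123). The Rpt3 null arrays were higher without overlap for both of these. The Atg2b probes differed too, with a log2 fold change of 0.40 (adjusted p = 0.136) for the brightest and -0.07 (adjusted p = 0.746) for the middle one. The dimmest Atg2b probe read 8.59, 8.62 and 8.81 on the Rpt3 null arrays and 7.34, 7.85 and 7.65 on the control arrays. Its groups were separate, and the log2 fold change was 1.06 (adjusted p = 0.00185). When the probes of a gene were averaged, Tecpr1 and Atg2b passed as higher. Which transcripts of these genes each probe reads was not tested. The second probes of Atg4a, Wdfy3 and Zkscan3 had log2 fold changes of -0.42, -0.06 and 0.03, none past the threshold and each of opposite sign to the brightest probe.

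**Figure D4:**
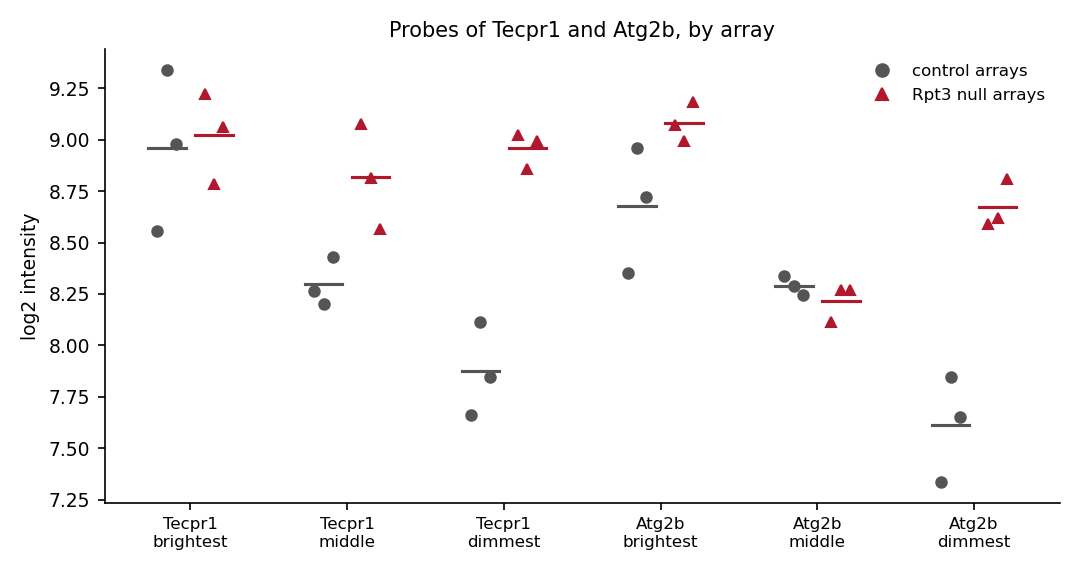
Log2 intensity of the 3 probes of Tecpr1 and of Atg2b on each array, named by their brightness within the gene, with group means as bars (n = 3 arrays per group). For the dimmest probe of each gene the groups do not overlap and their means differ by more than 1 log2 unit. The groups of the brightest Tecpr1 probe and of the middle Atg2b probe overlap.

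Genes next to this machinery were counted in lists of the pathway. Under quantile normalization 19.3% of all genes passed, 12.7% higher and 6.56% lower. The shares that passed were 24.1% for upstream signaling and 23.5% for endosome tethering and fusion. They were 36.4% for the lysosomal list and 42.9% for the ATG8 proteins and cargo receptors. The list of ATG8 proteins and cargo receptors also holds Wdr45 and Wdr45b, relatives of Wipi1 and Wipi2. Of its 14 tested genes, 6, Wdr45 among them, were higher and 8 did not pass, against 1 higher and 2 lower with Actb centring. With that centring 10329 of all 14731 genes were lower and 328 higher. The list was led under quantile normalization by the ATG8 protein gene Gabarap (log2 fold change 1.0) and the receptor for endoplasmic reticulum Retreg1 (0.98). The median of that list was 0.44, against 0.03 for the 40 genes and -0.01 for all genes. Upstream nutrient and growth signaling had 3 of 29 genes higher, 4 lower and a median of -0.01, against none higher and 21 lower with Actb centring. The AMP-activated protein kinase subunits in it moved apart under quantile normalization, with the catalytic subunit gene Prkaa1 at 0.84 and the regulatory subunit gene Prkag3, which is typical of fast glycolytic muscle, at -1.32. The other catalytic subunit gene Prkaa2, named here after its value was seen, was lower at -0.78. Lamtor2, a subunit of the Ragulator complex on lysosomes, stood at 0.66 and Mapk14, the p38 alpha kinase, at -0.99. Of 17 endosome tethering and fusion genes, 4 were higher and 13 did not pass, with a median of 0.06, whereas with Actb centring none was higher and 9 were lower. In that list the SNARE gene Vti1b (0.62) and Rubcn (0.53), an inhibitor of the Uvrag complex, changed most. Lysosomal membrane proteins and hydrolases had 7 of 22 higher and 1 lower and a median of 0.30, against 4 higher and 7 lower with Actb centring. In that list Atp6v1h, a subunit of the proton pump, stood at 1.73, the protease gene Ctsl at 1.58 and Gla, alpha-galactosidase, at -0.68. Hydrolases and proton pump subunits are abundant in macrophages as well, whose marker sum was higher on all Rpt3 null arrays as given above, and their share of these values was not tested.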

How the data were processed

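Expression was measured on 1-colour CodeLink arrays, 3 Rpt3 null and 3 control, grouped by the labels. The deposited scanner tables hold linear spot intensity with local background and a quality flag. The authors' deposited value table, with a median of 89.0 in every column, matched background-subtracted, quantile-normalized linear intensity and served as an alternative. Masked and contaminated spots were left out. Spot means were corrected with normexp (offset 50), log2-transformed and quantile-normalized, and control spots were dropped. Of 34967 transcript probes, 22151 were named with 1 gene, 21615 by the platform annotation and 536 through RefSeq accessions, 681 had several genes and 12135 were not listed. The brightest probe per gene not flagged near background on at least 3 arrays was kept. Groups were compared with limma 3.58.1 (R 4.3.3), two-sided, with Benjamini-Hochberg adjustment over 14731 genes and a threshold of 0.05, and the step was tested on simulated data. The study's methods name an unpaired test, run as an alternative. Signal over background and 6 arrays limit the precision. Each tested member is named. Values per array are given for members past the threshold, for Becn1 and Atg5 (proteins measured in the study) and for the member of lowest adjusted p in a role group with none past it, and up to 2 genes per direction for pathway lists. A few other members are given per array beside these. Members and lists were chosen with earlier results of these data known. The authors' settings for image analysis beyond the manufacturer's procedure are not given in the sources used here. Promoters were scanned with Python 3.11.15.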

Additional observations from a re-analysis of the deposited data

How the results depend on the processing

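With 1 array left out, 2 to 8 of the 40 autophagy genes were higher and 1 to 8 lower, and 1081 to 2332 of all genes were higher and 387 to 1418 lower, against 5, 4, 1870 and 967. Median centring gave 10 autophagy genes and 2556 of all genes higher and 3 and 600 lower. Centring on Actb gave 0 and 28 autophagy genes and 328 and 10329 of all genes higher and lower, a median of -0.67 for the autophagy genes, and reversed signs for Wipi2 (-0.052), Atg7 (-0.13), Epg5 (-0.19) and Vamp8 (-0.22). The methods' unpaired test gave 9 and 7 autophagy genes and 2502 and 1636 of all genes unadjusted, and after Benjamini-Hochberg adjustment 2 (Atg7 and Epg5) and 0 autophagy genes and 940 and 427 of all genes. A limit of 1.5-fold without a test gave 3 autophagy genes in each direction. Other probes of the same gene had the opposite sign for Atg2b (-0.072), Atg4a (-0.42), Wdfy3 (-0.061) and Zkscan3 (0.032). Centring on Actb took the log2 value of 1 probe from every gene of a median-centred array, so all genes moved by the same amount. The median of all genes went from 0.05 with median centring to -0.72, and that of the autophagy genes from 0.10 to -0.67. The Actb probe was thus itself higher on the Rpt3 null arrays under median centring. Why Actb was higher, and the cause of the other shifts, was not tested. Background correction, cyclic loess, the deposited value table, the flag filter, averaged probes and the prior kept all 9 called genes and added at most 2. The deviations of arrays that share a replicate number correlated at 0.13, -0.44 and 0.10. Arrays with different numbers gave -0.48 to 0.47. With 3 arrays per group such correlations cannot show whether the number pairs the arrays. With the number as a replicate block in limma, 4 autophagy genes were higher and 5 lower (1722 and 873 of all genes). Vamp8 was then lost (adjusted p = 0.0863) and Rab7 gained.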
